A study of Mus musculus with 30 samples.

Results

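Astrocyte genes were followed across hippocampi of TIMP2 KO and WT mice. The set held 36 genes chosen for astrocyte identity, transport or reactivity, and each was found by its Ensembl identifier among the 49315 identifiers of the count table. All 36 passed the filter on low counts and were tested among 16486 genes, and no member was lost. They were sorted by role into 9 identity genes and enzymes, 4 transporters of glutamate, GABA and amino acids, 8 genes of gap junctions, water, potassium and bicarbonate, 4 receptors, 6 secreted proteins, 2 intermediate filaments and 3 metallothioneins.

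Astrocytes clear glutamate and potassium released by neurons, convert glutamate into glutamine, and are joined to one another by gap junctions. Their endfeet cover blood vessels and carry the water channel aquaporin 4, and in response to injury the cells raise intermediate filaments and metallothioneins. Several of the genes are also transcribed outside astrocytes, such as Vim in vessel cells, Apoe in microglia and Mt3 in neurons, so that a level in whole tissue is a sum over cell types.

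Bulk RNA of whole hippocampus was sequenced from 30 mice on the C57BL/6J strain. TIMP2 KO, lacking the metalloproteinase inhibitor TIMP2, was represented by 7 females and 6 males, and WT by 7 females and 10 males. The KO line was constitutive and came from a commercial supplier, so that astrocytes, neurons and all other cells carried the deletion, and the labels gave no age per mouse. Total counts per mouse ran from 18345517 to 41081083, no pair of mice had identical counts, and members had between 284 and 107594 counts in a mouse, so that the spread between mice and not counting error set the precision. Timp2 itself was checked first, in CPM, the counts relative to library size after scaling by edgeR's TMM factors. KO mice had 130 to 171 CPM and WT mice 256 to 380 CPM, so the labelled genotypes did not overlap. The KO mean was still 50.1% of the WT mean, so the RNA level alone does not show a loss of TIMP2. The study reported the protein band as absent from interstitial fluid of KO hippocampus. The mean log2 CPM of 14 neuronal marker genes was 9.34 to 9.46 in KO and 9.34 to 9.44 in WT mice.

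Levels of the members spanned a wide range. Per kilobase of exon (RPKM), the highest were Apoe, the main lipoprotein of the brain, at 747, Sparcl1, a secreted matrix protein that promotes synapse formation, at 621. Glul, glutamine synthetase, came next, followed by Mt3 at 281. The lowest were Vim at 6.28, the BMP receptor Bmpr1b at 5.39 and Itih3, a heavy chain of inter-alpha-trypsin inhibitor, at 5.10. Aldh1l1, the folate enzyme widely used as a pan-astrocyte marker, was at 9.58, and Slc1a2, the main glutamate transporter, at 202.

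The first question was whether astrocyte transcripts differed between TIMP2 KO and WT hippocampus. Gfap, the intermediate filament of astrocytes, was the only member past an unadjusted p of 0.05, the threshold for differentially expressed genes in the study, and it was higher in KO mice by 6.65%. The other 35 did not pass. This was 1 of 36 members, beside 5.03% of all genes tested, or 2.47% counting only genes higher in KO. After Benjamini-Hochberg adjustment over all genes, edgeR's quasi-likelihood test called 0 members, beside 0.0546% of all genes, and DESeq2 and limma's voom called 0 as well.

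The differences were small in both directions. In log2 terms the fold changes ran from -0.084 for the bicarbonate cotransporter Slc4a4 to 0.093 for Gfap, with 10 positive and 26 negative and a median of -0.019, where all genes tested had a median of 0.0 and 50.2% positive values. For 35 members the 95% interval lay inside -0.2 and 0.2, the exception being Agt, whose interval ran from -0.23 to 0.11. The ranges of KO and WT mice overlapped for all 36. In bulk tissue fewer cells of a type and less RNA per cell cannot be told apart.

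**Figure D1:**
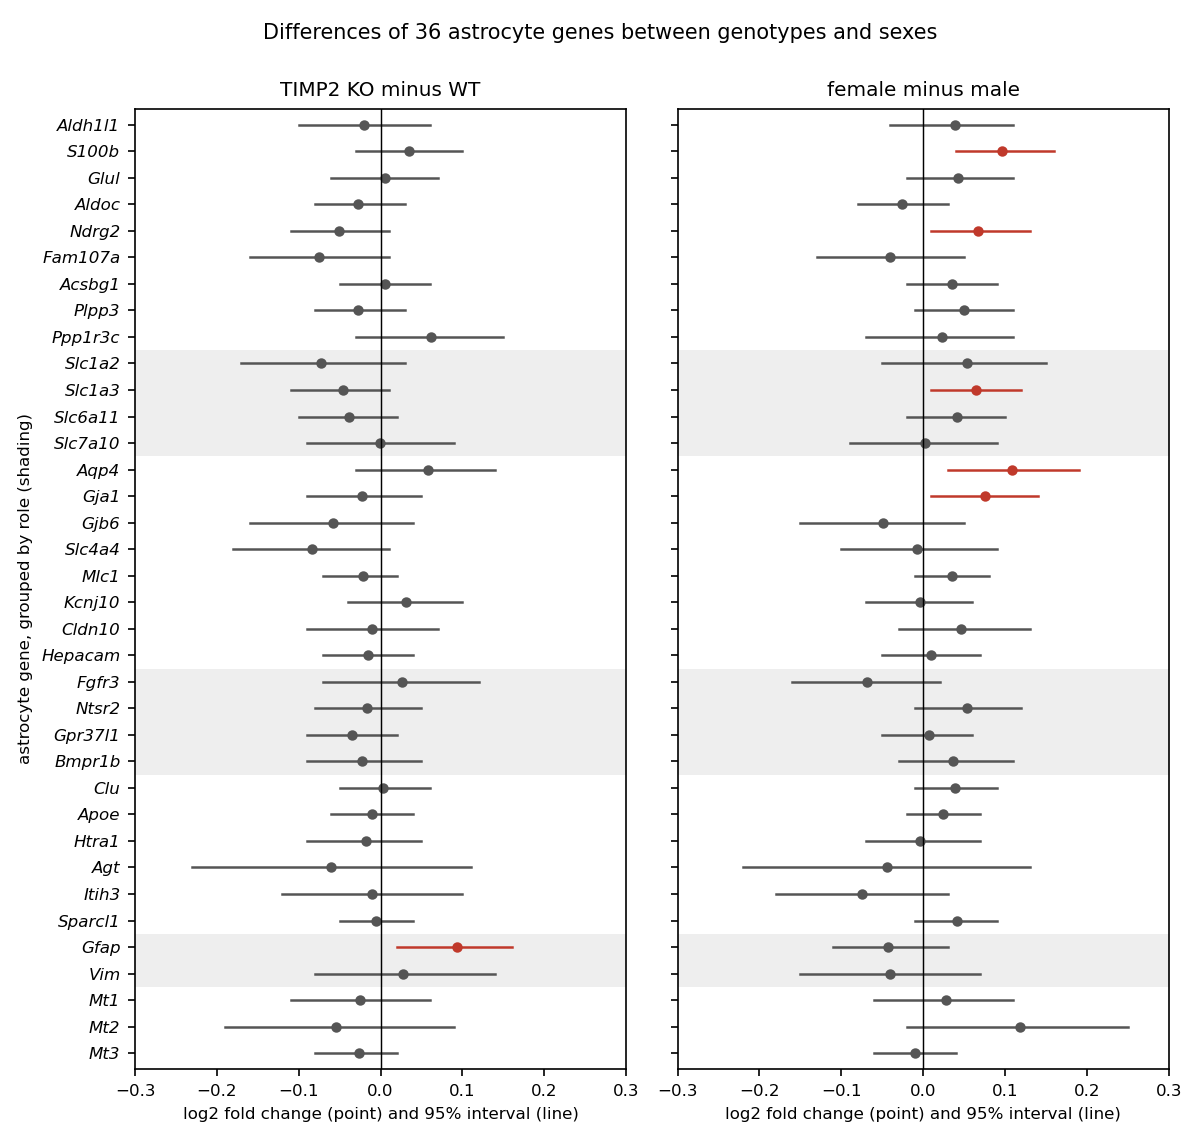
Fold changes of the 36 astrocyte genes by edgeR, with the log2 fold change on the horizontal axes and the genes, grouped by role, on the vertical axis. Points are estimates and lines are 95% intervals, and red marks an unadjusted p under 0.05, which holds for Gfap alone on the left (TIMP2 KO minus WT) and for S100b, Ndrg2, Slc1a3, Aqp4 and Gja1 on the right (female minus male).

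Gfap (ENSMUSG00000020932) occupies positions 102887336 to 102900912 of chromosome 11 (GRCm38, minus strand). Its lowest, median and highest levels were 407, 460 and 504 CPM in KO mice and 379, 429 and 486 CPM in WT mice. Among KO mice 11 of 13 lay above the WT median, yet the ranges overlapped over most of their width. The mean was 458 ± 29.1 CPM in KO (SD, n = 13) and 429 ± 31.9 CPM in WT (SD, n = 17), a log2 fold change of 0.093 (SE 0.035, unadjusted p = 0.0115, adjusted p = 0.905, edgeR's quasi-likelihood test). Leaving out each mouse in turn gave log2 fold changes between 0.081 and 0.106 and unadjusted p-values between 0.00369 and 0.0258 in 30 of 30 fits.

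The direction of Gfap was the same in each sex. KO males had 468 ± 31.7 CPM (SD, n = 6) against 432 ± 32.5 CPM in WT males (SD, n = 10), and KO females 448 ± 25.3 CPM (SD, n = 7) against 424 ± 32.9 CPM in WT females (SD, n = 7). Within males the log2 fold change was 0.12 (unadjusted p = 0.0253 by edgeR) and within females 0.08 (unadjusted p = 0.0921), and the difference between the sexes, tested as an interaction, had p = 0.611. Gfap lies 15.4 Mb before Timp2 on the same chromosome, and Aldoc 40.0 Mb before it. The part of chromosomal linkage to Timp2 in the Gfap value was not tested.

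Vim, the second filament, is made by astrocytes, endothelial cells and progenitors. It lay between 24.6 and 38.9 CPM with a median of 29.7 in KO mice, and between 25.2 and 38.2 CPM in WT mice, where the median was 30.0. The ranges were nearly the same, and the log2 fold change of 0.027 (SE 0.054) did not pass (unadjusted p = 0.616). The highest level of all belonged to a KO female and the next to a WT male.

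Among the transporters, Slc1a2 and Slc1a3 carry glutamate into astrocytes, Slc6a11 carries GABA, and Slc7a10 exchanges small neutral amino acids including serine. All 4 log2 fold changes were negative, from -0.073 to -0.001, and 0 of 4 passed. Only the sign of Slc7a10, the smallest, changed among the alternatives of scaling and filter, where it turned without a filter. Slc1a2 ran from 2080 to 3010 CPM in KO with a median of 2550, and from 2400 to 3160 CPM in WT with a median of 2760. The lowest values were from KO mice, and the rest of the KO range lay within that of WT mice. Its mean was 2580 ± 311 CPM in KO (SD, n = 13) and 2710 ± 230 CPM in WT (SD, n = 17), with a log2 fold change of -0.073 (SE 0.049, unadjusted p = 0.148). Slc1a3 ran from 612 to 760 CPM in KO and from 687 to 799 CPM in WT, with medians of 719 and 712. Its median was thus higher in KO and its mean lower, with a log2 fold change of -0.046 (SE 0.030, unadjusted p = 0.130).

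The 9 identity genes and enzymes had 4 positive and 5 negative log2 fold changes, and none passed. Aldh1l1 lay between 36.1 and 46.9 CPM in KO with a median of 43.5, and between 37.5 and 49.6 CPM in WT with a median of 43.8. The groups overlapped almost completely, and the interval of the log2 fold change ran from -0.10 to 0.06. Glul ran from 1340 to 1810 CPM in KO with a median of 1560, and from 1440 to 1700 CPM in WT with a median of 1550. The means were equal at 1550 CPM, while the SD was 126 in KO (n = 13) and 73.7 in WT mice (n = 17), and the interval of the log2 fold change was -0.06 to 0.07. S100b, a calcium-binding protein, ran from 109 to 133 CPM in KO and from 103 to 141 CPM in WT, and its log2 fold change was 0.035 (SE 0.033). Ndrg2, a member of the NDRG family enriched in astrocytes, ran from 671 to 835 CPM in KO and from 727 to 895 CPM in WT, with an unadjusted p of 0.109. Fam107a, an actin-associated protein induced by stress, had a log2 fold change of -0.075 (SE 0.044, unadjusted p = 0.0923). For Fam107a 2 of 13 KO mice lay above the WT median, the fewest among the 36 members, although the highest value of all 30 mice, 504 CPM, came from a KO mouse.

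The other 4 of the group were Aldoc, the brain form of aldolase, Acsbg1, an acyl-CoA synthetase, Plpp3, a lipid phosphatase, and Ppp1r3c, which directs protein phosphatase to glycogen. Aldoc had a log2 fold change of -0.028, Acsbg1 of 0.005, Plpp3 of -0.027 and Ppp1r3c of 0.062. The smallest unadjusted p among these was 0.156, for Ppp1r3c.

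The 8 genes of junctions, water, potassium and bicarbonate had 2 positive and 6 negative log2 fold changes, and 0 passed. Aqp4, the water channel of the endfeet, ran from 176 to 212 CPM in KO with a median of 187, and from 150 to 222 CPM in WT with a median of 180. KO mice lay within the WT range, and 11 of 13 were above the WT median. The log2 fold change was 0.058 (SE 0.042, unadjusted p = 0.181). Gja1, which encodes connexin 43, ran from 178 to 230 CPM in KO with a median of 217, and from 187 to 238 CPM in WT with a median of 216, and the ranges overlapped between 187 and 230 CPM. Gjb6, which encodes connexin 30, had a log2 fold change of -0.058 (SE 0.050). Slc4a4 had the largest negative value of all members, -0.084 (SE 0.046, unadjusted p = 0.0771), from 185 ± 16.0 CPM in KO (SD, n = 13) against 196 ± 19.7 CPM in WT (SD, n = 17). Kcnj10, the inward rectifier that buffers potassium, Mlc1 and Hepacam, partners in a membrane complex of the endfeet, and the claudin Cldn10 lay between -0.022 and 0.031.

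The 4 receptors gave unadjusted p-values of 0.202 or more. Gpr37l1, an orphan receptor of astrocytes, had a log2 fold change of -0.035, Bmpr1b of -0.023, the neurotensin receptor Ntsr2 of -0.017 and the FGF receptor Fgfr3 of 0.026. Exons of 6 members share bases with a gene on the opposite strand, most of all Fgfr3 with 998, and the strand setting of the counting was not given in the sources used here, so reads of such pairs cannot be told apart. Slc7a10 shares 377 bases and Mt2 432.

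The 6 secreted proteins included Apoe and Sparcl1, the most abundant members per length, and 0 of 6 passed. Apoe ran from 1410 to 1690 CPM in KO with a median of 1580, and from 1500 to 1710 CPM in WT with a median of 1600. Clu, clusterin, a chaperone and apolipoprotein, ran from 731 to 895 CPM in KO with a median of 841, and from 757 to 890 CPM in WT with a median of 837. In both genes the lowest mouse was a KO mouse, and the ranges of the genotypes overlapped. The log2 fold changes were -0.010 for Apoe (SE 0.023) and 0.003 for Clu (SE 0.026), and the intervals ended at -0.06 and 0.04 for Apoe and at -0.05 and 0.06 for Clu, among the narrowest of the set. Sparcl1 (-0.005), the serine protease Htra1 (-0.018) and Itih3 (-0.011) were also near 0. Agt, angiotensinogen, had the widest spread between mice, an SD of 0.257 in log2 CPM within genotypes, and its log2 fold change was -0.061 (SE 0.084).

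The metallothioneins bind zinc and copper. Mt1 and Mt2 are induced by metals and glucocorticoids, and Mt3 is the brain form. They lie in a row on the plus strand of chromosome 8 of GRCm38, Mt3 from 94152607 to 94154146, Mt2 from 94172664 to 94173568 and Mt1 from 94179082 to 94180327. Mt1 and Mt2 varied together across mice and Mt3 did so less. With genotype means subtracted, r was 0.75 for Mt1 and Mt2, 0.403 for Mt1 and Mt3 and 0.147 for Mt2 and Mt3. The start regions of these genes, 250 bases before to 50 after the start from RefSeq (GRCm38.p6), are therefore shown. They are chr8:94178839-94179138 for Mt1, chr8:94172368-94172667 for Mt2 and chr8:94152357-94152656 for Mt3. Capitals mark the core of the metal response element, TGCNCNC or its reverse complement GNGNGCA.
Mt1: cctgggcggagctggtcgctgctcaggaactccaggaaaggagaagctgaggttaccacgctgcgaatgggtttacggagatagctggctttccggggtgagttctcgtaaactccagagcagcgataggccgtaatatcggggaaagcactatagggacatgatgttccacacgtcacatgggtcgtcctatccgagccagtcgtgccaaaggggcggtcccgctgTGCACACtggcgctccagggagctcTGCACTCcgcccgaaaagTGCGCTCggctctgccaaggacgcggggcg
Mt2: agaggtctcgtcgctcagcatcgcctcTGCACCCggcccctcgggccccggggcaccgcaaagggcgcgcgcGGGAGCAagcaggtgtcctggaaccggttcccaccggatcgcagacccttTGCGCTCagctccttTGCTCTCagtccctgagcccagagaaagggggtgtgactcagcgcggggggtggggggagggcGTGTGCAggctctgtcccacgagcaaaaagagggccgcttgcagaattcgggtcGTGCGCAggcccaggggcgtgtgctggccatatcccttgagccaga
Mt3: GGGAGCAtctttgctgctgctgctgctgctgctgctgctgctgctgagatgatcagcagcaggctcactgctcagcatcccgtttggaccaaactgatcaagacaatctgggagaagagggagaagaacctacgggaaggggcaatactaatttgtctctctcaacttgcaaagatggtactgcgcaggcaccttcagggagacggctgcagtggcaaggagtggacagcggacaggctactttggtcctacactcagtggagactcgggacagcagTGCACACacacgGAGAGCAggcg

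On both strands and without overlap between matches, Mt1 had 3 matches, Mt2 6 and Mt3 3. Of 32851 promoters of the same length in the table, 51% held at least 1 match, 7.1% at least 3 and 0.225% at least 6. A match is a description of the letters and not a site, and a link between matches and covariation was not tested. Of the 36 members, 33 had a promoter entry in the table.

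In KO against WT, 0 of 3 metallothioneins passed, and all 3 log2 fold changes were negative under each scaling tried. Mt1 ran from 142 to 194 CPM in KO with a median of 171, and from 144 to 211 CPM in WT with a median of 170. Mt2 ran from 55.6 to 85.9 CPM in KO with a median of 68.0, and from 53.2 to 94.2 CPM in WT with a median of 70.7. Mt3 ran from 266 to 312 CPM in KO and from 281 to 329 CPM in WT, with a median of 300.0 in each. All 3 overlapped, and the log2 fold changes were -0.025 (SE 0.042) for Mt1, -0.055 (SE 0.069) for Mt2 and -0.026 (SE 0.025) for Mt3.

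Genes of related lists were counted in the same way, to be set beside the 5.03% of all genes tested. Among 46 other astrocyte genes, 3 (6.52%) passed an unadjusted p of 0.05, a share near that of all genes. Chrdl1, a BMP antagonist, was higher in KO (log2 fold change 0.19, p = 0.0219 by edgeR), Id3 was higher (0.12, p = 0.0258) and Ttyh1, a membrane protein of the tweety family, lower (-0.05, p = 0.0386). None of them passed after adjustment. Of 37 genes of reactive astrocytes 32 were tested, and 0 passed. The median SE of these 32 was 0.078 in log2 terms against 0.034 for the members, so they were measured less precisely. The median log2 fold change of the reactive list was 0.025, and 20 of the 32 were positive. Of 17 glucocorticoid-responsive genes tested 2 (11.8%) passed, Dusp1 (0.42, p = 0.0279) and Errfi1 (0.11, p = 0.0403), both higher in KO. Neither passed after adjustment.

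Markers of other cells moved with genotype in 1 list. Of 10 choroid plexus genes 6 were tested, 5 of these (83.3%) passed and all 6 were higher in KO by estimate. After adjustment 1 of the 6 passed, which was Ttr (adjusted p = 0.0326 by edgeR), beside 0.0546% of all genes. Ttr, transthyretin, had medians of 5.0 CPM in KO and 3.85 CPM in WT and means of 73.0 and 6.07 CPM, and the KO mean rested largely on mouse 11, a KO female at 635 CPM. Without that mouse the KO mean of Ttr was 26.1 CPM, its log2 fold change 2.14 in place of 3.67, and 4 of the 6 genes passed. The mean log2 CPM of these 6 genes was 1.89 to 5.42 in KO and 1.26 to 3.22 in WT mice. The correlation of that mean with Gfap over the 30 mice was 0.25, and 0.14 within KO and 0.08 within WT. With the mean of the microglial genes Gfap had 0.36, and 0.49 within KO and 0.24 within WT. With the neuronal mean it had 0.20, and 0.40 within KO and 0.0 within WT. The values were 0.18 with the oligodendrocyte mean and -0.04 with the endothelial mean. Without mouse 11 Gfap had a log2 fold change of 0.09 (unadjusted p = 0.017 by edgeR). Of 10 oligodendrocyte genes 0 passed and all 10 had positive log2 fold changes, with a median of 0.075, and the mean of the list lay between 6.63 and 7.38 in KO and between 6.63 and 7.25 in WT mice. Of 10 microglial genes and 8 meningeal fibroblast genes 0 passed in each list. Of 14 neuronal genes 1 (7.14%) did, Tubb3 (0.07, p = 0.00647 by edgeR), and of 10 endothelial genes 1 (10.0%), Slco1a4 (-0.10, p = 0.0174). Beside these stands 5.03% of all genes tested, and neither gene passed after adjustment. The part of cell composition in the values of the members was not tested.

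The genotype comparison of the astrocyte genes changed when sex and 8 surrogate variables, factors of hidden variation estimated from the same counts, were fitted beside genotype. In that model 10 of 36 members had an unadjusted p under 0.05, all lower in KO, beside 7.07% of all genes tested and 4.06% counting only genes lower in KO. They were Aldoc, Fam107a, Gjb6, Glul, Hepacam, Htra1, Mt3, Ndrg2, Slc1a2 and Slc4a4. Across mice, genotype means subtracted, r between these genes ran from -0.25 (Slc1a2 and Mt3) to 0.84 (Aldoc and Fam107a). The 10 are therefore not independent of one another. In total 32 members had a negative log2 fold change and the median was -0.040, against -0.001 for all genes. Fam107a had the smallest p (log2 fold change -0.14, SE 0.03, p = 1.34e-05) and was the only member past an adjusted p of 0.05 (0.0276), beside 0.0485% of all genes. Gjb6 (-0.13, p = 0.00189) and Aldoc (-0.07, p = 0.00182) followed, with an adjusted p of 0.352 each by edgeR. Gfap no longer passed (0.07, p = 0.0546). The p-values of this model treat the surrogate variables as known, although they were estimated from the same counts with genotype in the model. These p-values can therefore be too small. The surrogate variables accounted for 53.3% of the variance of the mean of the members over mice. This share is not adjusted for the number of variables, and they were estimated from counts that include the members, so it is an upper description. The study's methods name the day of tissue isolation as a source of variation that was adjusted for in its network analysis. These days are not given in the labels used here and were not fitted, so that their part in the surrogate variables, and in the values of the members by genotype and by sex, was not tested.

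**Figure D2:**
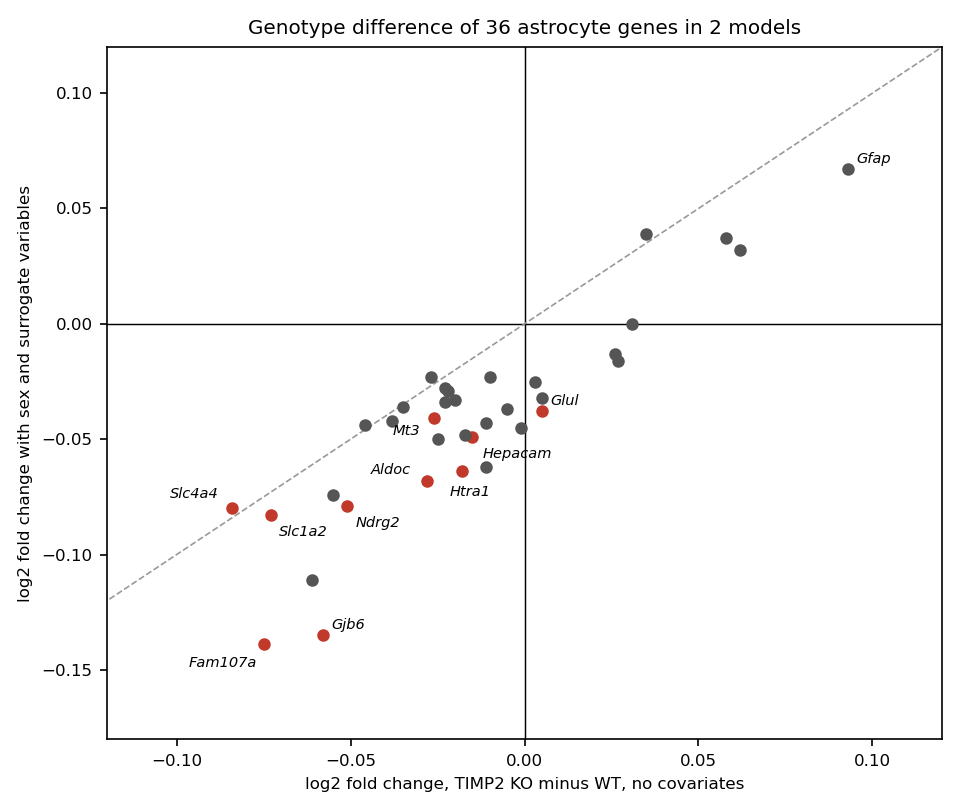
Log2 fold change of each of the 36 astrocyte genes, TIMP2 KO minus WT, without covariates on the horizontal axis and with sex and 8 surrogate variables on the vertical axis. The dashed line marks equal values, red points had an unadjusted p under 0.05 with the surrogate variables, and these 10, all below 0, are named together with Gfap.

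The second question was whether the sexes differed. In a model of sex and genotype, 5 of 36 members had an unadjusted p under 0.05, beside 9.77% of all genes tested. All 5 were higher in females, beside 5.14% of all genes called in that direction. They were S100b, Aqp4, Gja1, Ndrg2 and Slc1a3. By edgeR's quasi-likelihood test 0 members passed after adjustment, beside 0.218% of all genes, and DESeq2 called 5 before adjustment as well. Of the 36 members 24 had a higher estimate in females, and the median log2 difference, female minus male, was 0.031, against 0.001 for all genes.

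S100b ran from 113 to 141 CPM in females with a median of 123, and from 103 to 127 CPM in males with a median of 115. In 13 of 14 females it was above the male median, and the ranges overlapped. The log2 difference was 0.096 (SE 0.030, unadjusted p = 0.00273, adjusted p = 0.215 by edgeR). Within KO the sexes did not overlap, with 122 to 133 CPM in 7 females and 109 to 118 CPM in 6 males. It was the only one of 36 members for which this held, beside 0.255% of all genes tested. Within WT the females ran from 113 to 141 CPM and the males from 103 to 127 CPM, with overlap, and 0 members were apart there, beside 0.0789% of all genes. The interaction of sex and genotype for S100b had p = 0.210, so a difference between the genotypes in this respect was not shown.

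Aqp4 was 163 to 222 CPM in females with a median of 196, and 150 to 212 CPM in males with a median of 178. Of the females 13 of 14 lay above the male median, and the log2 difference was 0.109 (SE 0.038, unadjusted p = 0.00786, adjusted p = 0.326 by edgeR). Gja1 was 205 to 238 CPM in females and 178 to 234 CPM in males, with medians of 217 and 207 (log2 difference 0.075, unadjusted p = 0.0242). The ranges of the sexes overlapped in both genes, and the highest mouse was a female in each. Slc1a3 had medians of 724 CPM in females and 700.0 CPM in males (0.064, p = 0.0280), and Ndrg2 of 798 and 784 CPM (0.067, p = 0.0279). In these 2 genes the lowest values were from KO males, at 612 CPM for Slc1a3 and 671 CPM for Ndrg2.

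By role, the estimate was higher in females for 4 of 4 transporters, 7 of 9 identity genes and enzymes, and 5 of 8 genes of junctions, water, potassium and bicarbonate. In the last of these groups Gjb6 had a log2 difference of -0.049, female minus male, against 0.075 for Gja1, and Kcnj10 had -0.004 against 0.109 for Aqp4. Neither Gjb6 (p = 0.327) nor Kcnj10 (p = 0.898) passed, and the differences between these genes were not tested. Gfap (-0.043) and Vim (-0.041) were lower in females by estimate, and neither passed. Mt2 had the largest estimate of all, 0.118 (SE 0.067, unadjusted p = 0.0847).

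Among the other astrocyte genes 9 of 46 (19.6%) passed between the sexes, beside 9.77% of all genes tested. All 9 were higher in females, led by the phospholipase Pla2g7 (0.13, p = 0.000366), the sphingosine receptor S1pr1 (0.12, p = 0.000707) and the zinc transporter Slc39a12 (0.10, p = 0.00176). Their adjusted p-values by edgeR were 0.0914, 0.125 and 0.187. Of 32 reactive astrocyte genes tested 4 (12.5%) passed, a share near the 9.77% of all genes. All 4 were lower in females, among them Fkbp5 (-0.13, p = 0.00548), Serpina3n (-0.11, p = 0.0185) and Ptx3 (-0.39, p = 0.0233), while 16 of the 32 had a negative estimate. Ptx3 had only 5 to 41 counts per mouse, and Fkbp5 is also on the glucocorticoid-responsive list. Of 14 neuronal genes 3 (21.4%) passed, all lower in females, which were Slc17a7 (-0.07, p = 0.00538), Gad2 (-0.07, p = 0.0344) and Syt1 (-0.04, p = 0.0446). All 10 microglial genes were also higher in females by estimate, of which 2 (20.0%) passed, Itgam (0.13, p = 0.0256) and P2ry12 (0.08, p = 0.0274). No gene of these lists passed after adjustment. The mean of the microglial list had a correlation of 0.596 with the mean of the members over the 30 mice. The interaction of sex and genotype passed for 0 of 36 members by edgeR and by DESeq2, beside 2.57% of all genes, and after adjustment for 0% of all genes. The smallest p was 0.117, for Agt.

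**Figure D3:**
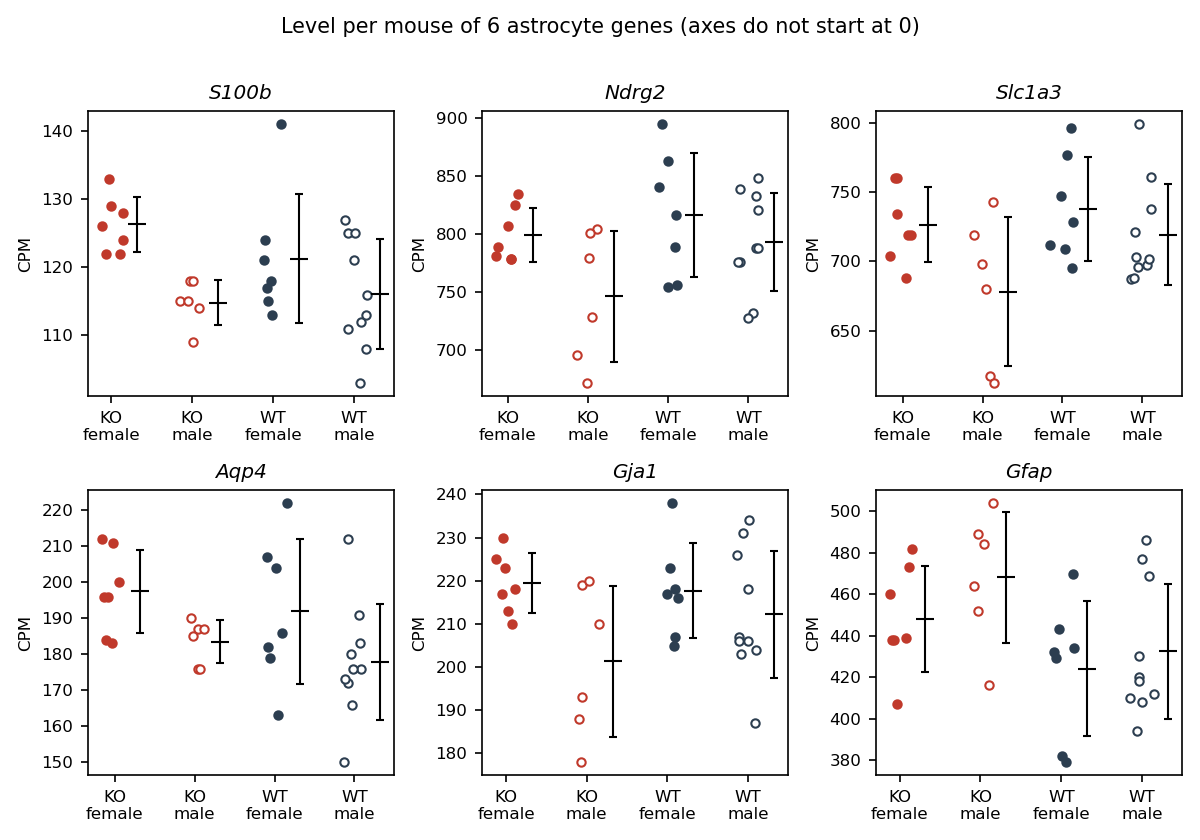
Level in CPM on the vertical axes, 1 point per mouse, of the 6 astrocyte genes with an unadjusted p under 0.05 between genotypes or sexes, with TIMP2 KO in red, WT in dark blue, females filled and males open. Bars are mean and SD of 7 KO females, 6 KO males, 7 WT females and 10 WT males, and S100b of KO females (122 to 133) lay above that of KO males (109 to 118).

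The third question was how far the members varied together across mice. Pearson's r of log2 CPM was taken for all 630 pairs after the mean of each genotype was subtracted, as a description, since the genes of a mouse come from 1 library and share its depth. The median r was 0.33 (SE 0.076 by leaving out each mouse in turn, range 0.28 to 0.362), and 155 pairs, 24.6%, had r of 0.5 or more. Over all pairs of genes tested the median was 0.0 and 1.41% reached 0.5. The median r was 0.41 in KO mice and 0.29 in WT mice. The mean of the 36 members in log2 CPM ran from 7.32 to 7.53 in KO and from 7.36 to 7.56 in WT mice, a difference of -0.014 (SE 0.021), and had a correlation of 0.00433 with log2 total counts.

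Other marker lists gave a scale for these values. The median r was 0.85 among 10 oligodendrocyte genes, 0.66 among 6 choroid plexus genes, 0.44 among 10 microglial genes, 0.25 among 46 other astrocyte genes, 0.15 among 14 neuronal genes and 0.03 among 32 reactive astrocyte genes. Within genotypes the members had a median SD of 0.097 in log2 CPM, from 0.0568 for Mlc1 to 0.257 for Agt, above the median of 0.078 for 8052 genes at like levels.

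**Figure D4:**
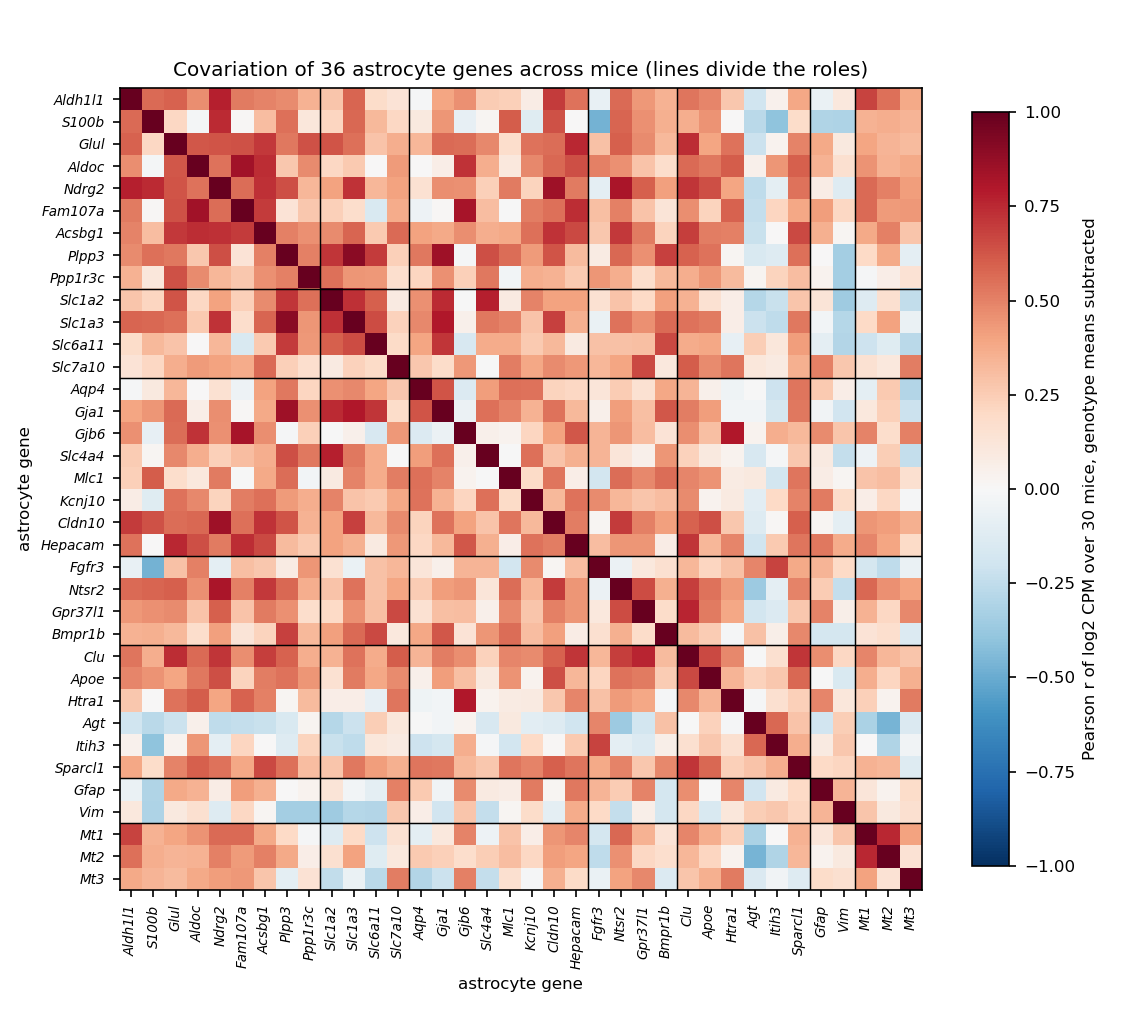
Pearson's r of log2 CPM between each pair of the 36 astrocyte genes over 30 mice, genotype means subtracted, with the genes in the same order on both axes, lines between the roles and colour from blue (-1) to red (1). Most pairs are red (median 0.33), and Agt, Itih3, Vim and Fgfr3 form pale or blue rows, down to -0.47 for S100b and Fgfr3.

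The strongest pair was Slc1a3 and Plpp3 (r = 0.90). Then came Ndrg2 and Cldn10 (0.85), Aldoc and Fam107a (0.84), Gja1 and Plpp3 (0.84) and Gjb6 and Fam107a (0.82). Within the identity genes and enzymes the median r was 0.52 over 36 pairs. Clu had the highest mean r with the other 35 members (0.47), followed by Acsbg1 (0.45), Glul (0.44) and Ndrg2 (0.44).

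Some members stood outside the shared variation. The mean r was -0.05 for Agt, 0.02 for Vim, 0.07 for Itih3, 0.15 for Mt3, 0.17 for Fgfr3 and 0.18 for Gfap. Agt was negatively correlated with 23 of 35 members, down to -0.46 with Mt2, and its closest member was Itih3 (0.58). Itih3 and Fgfr3 had r of 0.68 with each other, while each was negative with S100b (-0.40 and -0.47). Gfap was closest to Hepacam (0.53) and negative with S100b (-0.30).

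Pairs of related function were tested across the 30 mice by a permutation test with 100000 resamples, 2-sided, with p-values adjusted over the 10 pairs examined. Of these, 6 passed. The test asks only whether r differs from 0. Over all 630 pairs of members, genotype means subtracted, the median r was 0.33 and 24.6% had r of 0.5 or more. A pass therefore does not set a pair of related function apart from other pairs of members. Mt1 and Mt2 had r = 0.75 (rho 0.68, adjusted p = 0.0001 by permutation), with 0.88 within KO and 0.68 within WT. Without the 2 mice farthest from the median of Mt1, r was 0.68. Mt2 and Mt3, in contrast, had r = 0.17 (rho 0.22, adjusted p = 0.475 by permutation), with 0.71 within KO and -0.19 within WT, and whether the genotypes differed in this was not tested.

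Both glutamate transporters varied together. Slc1a2 and Slc1a3 had r = 0.75 (rho 0.60, adjusted p = 0.0001 by permutation, from the smallest raw p that the resamples can give, 1e-05). The value was 0.81 within KO, 0.60 within WT and 0.61 without the 2 mice farthest from the median of Slc1a2. Glul, which turns the glutamate taken up into glutamine, followed Slc1a2 with r = 0.61 (rho 0.56, adjusted p = 0.00095 by permutation, 0.69 within KO and 0.52 within WT, 0.50 without 2 mice). Apoe and Clu had r = 0.65 (rho 0.51, adjusted p = 0.000267 by permutation, 0.79 within KO and 0.48 within WT, 0.55 without 2 mice).

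Aqp4 and Kcnj10, which share the endfeet, had r = 0.56 (rho 0.43, adjusted p = 0.00238 by permutation). Within WT r was 0.70 and within KO 0.0, a difference that was not tested, and r over all mice was 0.41 without 2 of them. Aldh1l1 and Aldoc had r = 0.47 (rho 0.49, adjusted p = 0.014 by permutation, 0.59 within KO and 0.36 within WT), which was 0.32 without 2 mice.

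The other pairs did not pass. Gfap and Vim had r = 0.35 (rho 0.37, adjusted p = 0.0858 by permutation), with 0.58 within WT and -0.01 within KO. Gja1 and Gjb6, whose connexins build the gap junctions of astrocytes, had r = -0.03 (rho -0.07, adjusted p = 0.859 by permutation). Each had close partners elsewhere, Gja1 in Plpp3 (0.84) and Gjb6 in Fam107a (0.82). Mlc1 and Hepacam, whose proteins form a complex, had r = 0.08 (rho 0.04, adjusted p = 0.730 by permutation).

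**Figure D5:**
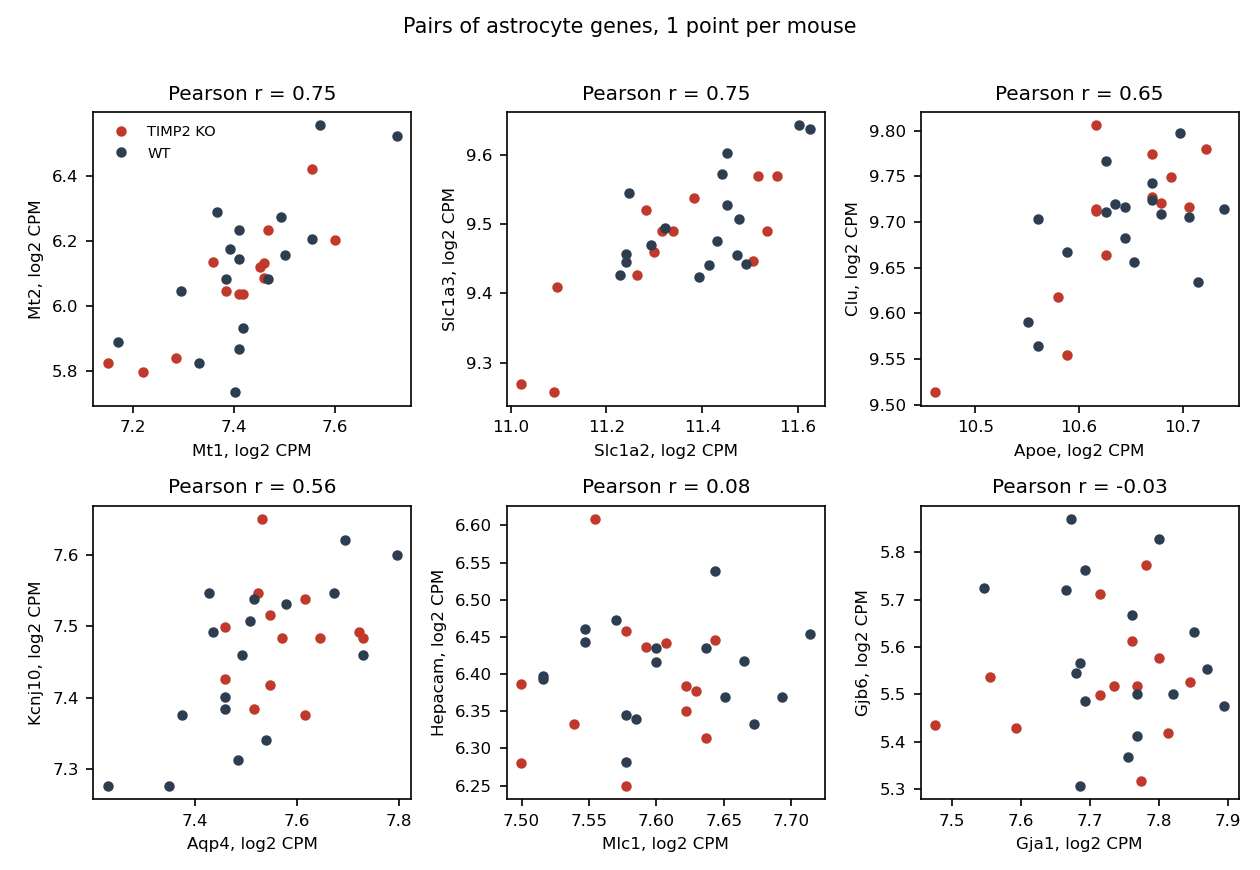
Log2 CPM of 6 pairs of astrocyte genes, 1 gene on each axis and 1 point per mouse, TIMP2 KO in red and WT in dark blue. Mt1 and Mt2 (r = 0.75), Slc1a2 and Slc1a3 (0.75), Apoe and Clu (0.65) and Aqp4 and Kcnj10 (0.56) rise together, whereas Mlc1 and Hepacam (0.08) and Gja1 and Gjb6 (-0.03) do not.

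Outside the set, genes whose levels closely followed the mean of the members over 30 mice, genotype means subtracted, included Capn2 (r = 0.78), Fads1 (0.78), Acot11 (0.75), Klhdc7a (0.75), Phc1 (0.75), Pdlim5 (0.75), Atp1b2 (0.75), F3 (0.73) and Fzd4 (0.73). Atp1b2 and F3 belong to the list of other astrocyte genes. Of the 46 other astrocyte genes 19 (41.3%) had r of 0.5 or more with that mean, beside 2.08% of all other genes tested. So did 3 of 10 microglial, 5 of 17 glucocorticoid-responsive, 2 of 10 endothelial and 1 of 32 reactive astrocyte genes. The number was 0 for neuronal, oligodendrocyte, choroid plexus and meningeal fibroblast genes. The median r was 0.44 for the other astrocyte genes and 0.48 for the microglial genes, so following that mean was not particular to astrocyte genes. Single neuronal markers had a median r of -0.16 with the mean of the members. The mean of the neuronal list, without subtracting genotype means, had r of -0.0525 over all mice, 0.376 within KO and -0.448 within WT. That difference between genotypes was not tested.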

How the data were processed

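Hippocampal poly(A) RNA of 30 mice was sequenced as paired reads. The authors aligned them to GRCm38 with STAR 2.5.2b, and the deposited values are raw counts of reads per gene and mouse, without normalization. The submitters' processing notes also name Trimmomatic 0.36 and featureCounts of Subread 1.5.2, and the strand setting and annotation release are not given in the sources used here. All 30 columns matched a mouse and 0 were left over. Symbols and positions came from GENCODE M21, with 49056 of 49315 identifiers matched, and exon lengths for RPKM from the same release.

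TMM scaling, filterByExpr and the quasi-likelihood test of edgeR 4.0.16 in R 4.3.3 were run on all genes, with Benjamini-Hochberg adjustment over the 16486 tested. KO and WT were compared with both sexes pooled and without covariates, and the sexes in a model with genotype. The study also compared mice of both sexes, and its methods state no covariate for that comparison. Mice are separate animals, and no replicate numbers pair them. Log2 CPM used a prior count of 2. The test was also run on counts simulated for each gene independently. That run does not cover variation shared between genes, and no result here rests on it. Alternatives were DESeq2 1.42.0, limma 3.58.1 (voom), sva 3.50.0, RLE factors, 2 filters, sex as a covariate, each sex alone and omission of single mice. Correlations used numpy 2.4.6 and Python 3.11.15.

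The members, gene lists, pairs and the rule for named genes were chosen with earlier results of these data known. Full values were given for 13 listed members and for those with an unadjusted p under 0.05, and other lists by up to 3 genes with the smallest p. 1 result is not reported here.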

Additional observations from a re-analysis of the deposited data

Results flagged for a closer look

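Each member was examined within each of the 4 groups of genotype and sex, 148 groups of values in all with the mean of the members, for a mouse far from the others of its group. There were 3 such values, where chance gives about 1 in 20 groups, or 7.4. Clu had 9.56 log2 CPM in mouse 32, a WT male, with 9.66 to 9.73 in the other 9 WT males. Mt3 had 8.05 log2 CPM in mouse 15, a KO male, with 8.20 to 8.28 in the other KO males. Agt had 3.75 log2 CPM in mouse 18, a KO male, with 4.24 to 4.42 in the other KO males. The 3 values were from different mice, and their causes were not tested.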

How the results depend on the processing

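The count of members at an unadjusted p under 0.05 in KO against WT stayed at 1 under 6 of 10 settings. It was 2 with sex as a covariate (Gfap, Ndrg2, beside 5.62% of all genes) and in males alone (Gfap, Slc6a11, 3.25%), 3 with voom (Fam107a, Gfap, Slc4a4, 5.82%) and 10 with sex and surrogate variables, where 1 passed adjustment. In females alone the 1 member was Fam107a. Leaving out each mouse in turn, added after the data were seen, gave 1 to 2, with 2 when KO mouse 10 (Ppp1r3c added), 15 (Slc4a4) or 18 (Fam107a) or WT mouse 4, 9 (Slc4a4 for both) or 32 (Fam107a) was absent. The sex count stayed at 5 and the interaction at 0 under all 4 settings, and 4 to 6 pairs passed. The cause of these changes was not tested. Log2 fold changes near 0 changed sign in some settings. With sex as a covariate Glul was -0.00036 and Clu -0.0023, in females alone Aldh1l1 and Gja1 were 0.01 and Apoe 0.0091, in males alone Glul and S100b were -0.01 and Clu -0.03, with voom Glul was -0.0021, without mouse 11 Clu was -0.0036, and with surrogate variables Vim was -0.02, Glul -0.04 and Clu -0.03. Without 1 mouse, Vim ran from -0.0069 to 0.05, Glul from -0.02 to 0.02, Apoe from -0.02 to 0.0036 and Clu from -0.0065 to 0.02. Of the pairs, Mt2 and Mt3 had r = -0.19 in WT mice alone, and in KO mice alone Gja1 and Gjb6 had 0.21 and Gfap and Vim -0.01. No paired analysis was possible because the replicate numbers were given in accession order and pair no mice. The SE of a member's log2 fold change had a median of 0.034. A difference as small as its SE cannot reach an unadjusted p of 0.05, and adjustment asks for more. Slc4a4, at -0.084 (SE 0.046), did not pass (unadjusted p = 0.0771 by edgeR's quasi-likelihood test). Differences near the SE or below it were thus not detectable with these mice.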

Other observations

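Some genes ran against the mean of the 36 astrocyte genes across the 30 mice, genotype means subtracted. They were chosen after their values were seen. The lowest were Ube2d3, a ubiquitin-conjugating enzyme, with r = -0.81, Scfd1, a protein of vesicle transport (-0.75), Necap1, a protein of clathrin-coated vesicles (-0.75), Lancl2 (-0.75) and Tmem30a, a subunit of lipid flippases (-0.75). None of the 5 had an unadjusted p under 0.05 between genotypes or sexes. The mean of the 17 glucocorticoid-responsive genes had a correlation of 0.551 with the mean of the members, 0.738 within KO and 0.443 within WT mice, and the mean of the 10 oligodendrocyte genes had 0.315, with 0.577 and 0.162. These values are descriptions, and the differences between genotypes were not tested.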
